A study of Arabidopsis thaliana with 6 samples.

Results

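The thylakoid FtsH and DEG proteases of Arabidopsis thaliana were followed as transcripts, in whole seedlings of the wild type and of the mutant pgp1-2. The set was defined by 8 loci, 4 FtsH genes (FTSH1, FTSH2, FTSH5 and FTSH8) and 4 DEG genes (DEG1, DEG2, DEG5 and DEG8). All array probes whose transcript accession belonged to one of these loci were taken. All 8 genes were found, through 15 of 43406 usable probes, and all 8 were among the 22682 genes that passed the filter on dim probes. Of these 22682, 19109 had a matched locus. The rest had none, and each was counted as a gene under its name on the array, also in the shares of all genes below.

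The mutant carries a defect in PGP1, which encodes a phosphatidylglycerophosphate synthase on the route to the membrane lipid phosphatidylglycerol, and the study compared gene expression of seedlings short of this lipid with that of the wild type. Both genotypes were of the Columbia-0 ecotype and were grown on agar with 3% sucrose in continuous light. The light was first 30 µmol photons m-2 s-1, for 7 d in the wild type and for 14 d in pgp1-2. It was then lowered to 15 µmol photons m-2 s-1 for the last 7 d of both genotypes. They were thus 14 d and 21 d old when sampled, so every difference below is one of genotype and age together, and the 2 cannot be told apart. Each genotype was measured on 3 arrays. Nothing in the labels says that these came from separate cultures, so the p-values measure the spread between these samples.

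FtsH proteases are ATP-driven, zinc-dependent proteases anchored in the thylakoid membrane, with the active site facing the stroma. They form a ring of type A subunits (FTSH1 and FTSH5) and type B subunits (FTSH2 and FTSH8), and they are known for removing light-damaged D1, the reaction centre protein of photosystem II, so that it can be replaced. Loss of FTSH5 (VAR1) or FTSH2 (VAR2) gives variegated leaves. DEG proteases are serine proteases that work without ATP: DEG1, DEG5 and DEG8 lie in the thylakoid lumen, and DEG2 lies on the stromal side of the membrane.

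The arrays were first checked as a whole. The 75th percentile of the processed signal, the reference for every value below, lay between 2620 and 3653 on the 6 arrays. The single PGP1 probe was well above background on 3 of 3 wild-type arrays and on 0 of 3 pgp1-2 arrays. Against the lowest signal still well above background, averaged over the pgp1-2 arrays, the wild-type signal was higher by at least 225.5-fold. The limma test, run on the measured signals, gave an adjusted p of 8.55e-05. Whether this probe lies outside the mutated stretch was not tested. Of all 22682 genes, 52.4% were called in either direction, 24.5% lower and 27.9% higher in pgp1-2. Called here means a limma adjusted p below 0.05. Their median log2 difference, mutant minus wild type, was 0.034. In RNA of whole seedlings, fewer cells of a type and less RNA per cell cannot be told apart.

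In pgp1-2 seedlings, transcripts of all 4 FtsH genes and of the 3 lumenal DEG genes were lower than in the wild type, while those of DEG2, the stromal-side protease, differed by less than the spread between arrays. In all, 7 of 8 members were called lower and 0 higher, against 24.5% of all genes called lower. At those 7 genes every mutant array lay below every wild-type array, which 29.6% of all genes did. The median log2 difference was -0.74 over the 8 members, -0.91 over the FtsH genes and -0.62 over the DEG genes. Only FTSH1 and FTSH8 were called lower with a log2 difference of -1 or below, as were 8.05% of all genes.

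**Figure D1:**
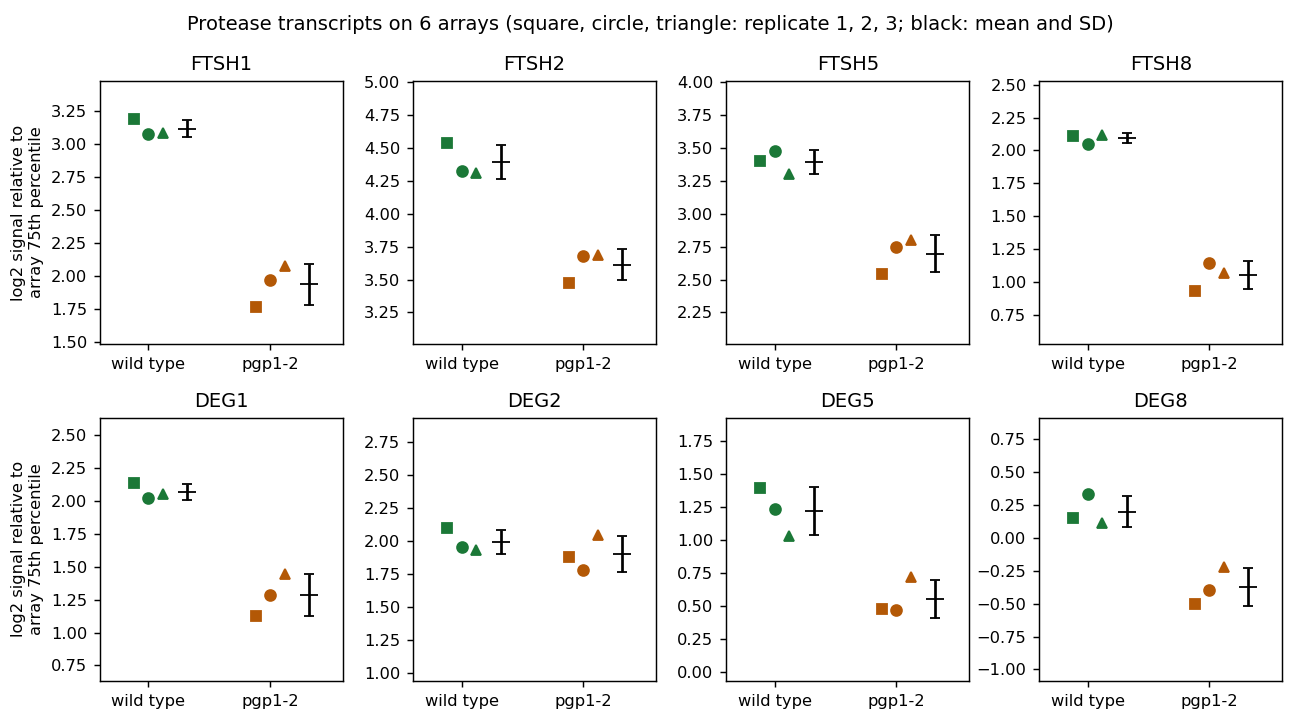
Log2 signal relative to each array's 75th percentile for the 8 protease genes, with 1 panel per gene and a vertical span of 2 log2 units in every panel. Symbols are single arrays (3 per genotype), and black marks are the mean and SD. Wild-type and pgp1-2 arrays are separated at 7 genes and overlap at DEG2.

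Among the type A subunits, FTSH1 (AT1G50250) was measured as log2 signal above the array's 75th percentile, which was 3.20, 3.08 and 3.09 in wild-type replicates 1, 2 and 3. On the pgp1-2 arrays it was 1.77, 1.97 and 2.08. The groups stood 1.00 apart at their nearest arrays. The means were 3.12 ± 0.066 and 1.94 ± 0.16 (SD, n = 3), so FTSH1 fell, by a log2 difference of -1.18 (standard error 0.097, limma adjusted p = 0.000357). This left 44.1% of the wild-type signal, the lowest share among the 8 genes. FTSH5 (AT5G42270), the type A subunit whose loss variegates leaves, gave 3.40, 3.48 and 3.30 in the wild type and 2.54, 2.75 and 2.80 in the mutant. Again the groups did not overlap. Its log2 difference was -0.69 (standard error 0.095, limma adjusted p = 0.00185), which left 61.8% of the wild-type signal.

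Both type B subunits fell as well. FTSH2 (AT2G30950), whose product is the most abundant FtsH subunit of thylakoids, gave 4.54, 4.33 and 4.31 in the wild type and 3.48, 3.68 and 3.68 in pgp1-2. The lowest wild-type array stood 0.63 above the highest mutant array. The log2 difference was -0.78 (standard error 0.098, limma adjusted p = 0.00138), and 58.2% of the wild-type signal remained. FTSH8 (AT1G06430), the second type B subunit, gave 2.11, 2.05 and 2.12 in the wild type and 0.93, 1.14 and 1.07 in the mutant. Its wild-type arrays were the most alike of any group of the 8 genes, with an SD of 0.038. The log2 difference was -1.04 (standard error 0.076, limma adjusted p = 0.000271), which left 48.5% of the wild-type signal. Averaged over its subunits, the log2 difference was -0.94 for type A and -0.91 for type B.

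FTSH1 and FTSH5, and likewise FTSH2 and FTSH8, are close copies. Probe sequences were not used here, so how far a probe also measures the copy was not tested.

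Of the lumenal DEG proteases, DEG1 (AT3G27925), which takes part in photosystem II assembly and in D1 breakdown, gave a log2 signal of 2.14, 2.02 and 2.05 in the wild type and 1.13, 1.29 and 1.44 in pgp1-2. The groups did not overlap, and the means were 2.07 ± 0.061 and 1.29 ± 0.16 (SD, n = 3). The log2 difference of -0.78 was called, at a limma adjusted p of 0.00122 (standard error 0.096). DEG5 (AT4G18370), a lumenal partner of DEG8, gave 1.39, 1.24 and 1.03 in the wild type and 0.48, 0.47 and 0.72 in the mutant. It had the widest wild-type spread of the 8 genes, an SD of 0.18, yet its groups stood apart by 0.31. Its log2 difference was -0.66 (standard error 0.12, limma adjusted p = 0.00554). DEG8 (AT5G39830) gave 0.15, 0.33 and 0.12 in the wild type and -0.50, -0.39 and -0.22 in the mutant. Its log2 difference of -0.57 (standard error 0.10, limma adjusted p = 0.00485) was the smallest of the 7 that were called, and 67.2% of the wild-type signal remained.

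DEG2 (AT2G47940) stood apart from the other members. It gave a log2 signal of 2.10, 1.96 and 1.93 in the wild type and 1.88, 1.78 and 2.05 in pgp1-2, so that the groups overlapped. The means were 1.99 ± 0.089 and 1.90 ± 0.14 (SD, n = 3). The log2 difference of -0.09 was not called (limma adjusted p = 0.446), and its 95% interval ran from -0.32 to 0.14. The call leaves room for a fall within that interval. The ratio of DEG2 to DEG1 within an array, a pair chosen after the values were seen and given without a test, was -0.04, -0.06 and -0.12 on the log2 scale in the wild type and 0.75, 0.49 and 0.61 in the mutant.

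Several of the genes were measured by more than 1 probe, and the probes of a gene went the same way. The array held a single probe for each of FTSH5, FTSH8 and DEG1 and 2 or 3 for each of the other 5 genes. With every probe tested by itself, all 15 were lower in pgp1-2 and 12 were called by limma, against 24.4% of all probes called lower. The 3 that were not called were the 3 probes of DEG2, with log2 differences of -0.09, -0.13 and -0.13. The dim second FTSH1 probe, with a median processed signal of 171 against 19154 for the bright one, gave a log2 difference of -1.02 where the bright one gave -1.18. The second FTSH2 probe gave -0.86 beside -0.78, and the second DEG5 probe -0.74 beside -0.66. At DEG8 the bright probe gave -0.57 and the dim ones gave -0.70 and -0.84. Under normexp, another background correction, both dim DEG8 probes were no longer called, each with a limma adjusted p of 0.0525.

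**Figure D2:**
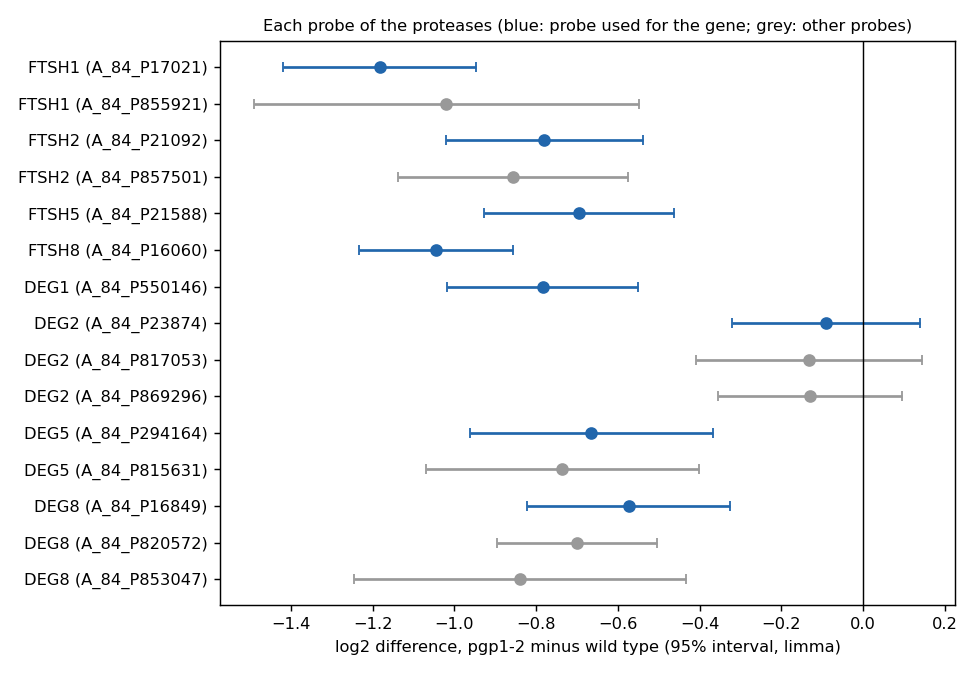
Log2 difference (pgp1-2 minus wild type) of each of the 15 probes, with its 95% limma interval. Blue points are the probe used for the gene and grey points are the other probes. The intervals of the 3 DEG2 probes include 0 and those of the other 12 do not.

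A ratio within an array does not change when a whole array is shifted to another reference, as the percentile, median and spike-in scalings do. The ratios of 4 pairs of members were compared with a two-sided exact permutation test. With 3 arrays against 3 the smallest p this test can give is 0.10, so no pair could pass a threshold of 0.05. The log2 ratio of FTSH5 to FTSH1, the type A pair, was 0.20, 0.40 and 0.21 in the wild type and 0.77, 0.78 and 0.73 in pgp1-2. The mutant ratio was higher on every array, by 0.49 on average or 1.40-fold (exact p = 0.10, adjusted over the 4 pairs 0.20). The log2 ratio of FTSH2 to FTSH8, the type B pair, was 2.43, 2.28 and 2.19 in the wild type and 2.54, 2.54 and 2.61 in the mutant. Here too the groups did not overlap, with a change of 0.26 or 1.20-fold (exact p = 0.10, adjusted 0.20). Quantile normalization, which does not shift an array as a whole, gave a change of 0.45 for this pair. With the mean of probes in place of the brightest probe the change was 0.23. In both pairs the subunit known from variegated mutants, FTSH5 or FTSH2, was thus higher relative to its copy on the mutant arrays.

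The other pairs overlapped between the groups. The log2 ratio of FTSH5 to FTSH2, a type A to a type B subunit, changed by 0.09 (exact p = 0.50, adjusted 0.67), and by -0.03 under quantile normalization. That of DEG5 to DEG8, partners in a lumenal complex, changed by -0.09 (exact p = 0.70, adjusted 0.70). The spread of this last ratio in the wild type, an SD of 0.19, was wider than the change, and without wild-type replicate 1 the change was 0.019.

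**Figure D3:**
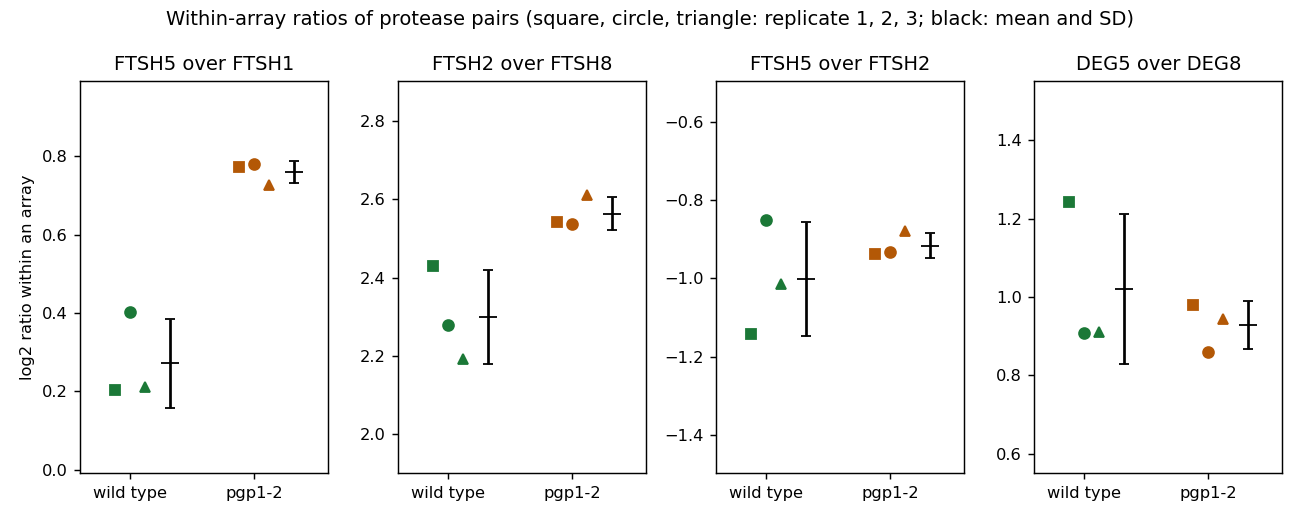
Log2 ratio of 2 protease transcripts within each array, for 4 pairs, with a vertical span of 1 log2 unit in every panel. Symbols are single arrays (3 per genotype), and black marks are the mean and SD. FTSH5 over FTSH1 and FTSH2 over FTSH8 are higher on all 3 pgp1-2 arrays, and the other pairs overlap.

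The arrays came from 2 slides. Slide 1 held replicate 1 of each genotype, slide 2 held replicates 2 and 3, and each slide was scanned in a session of its own. All 8 members were lower in pgp1-2 on each slide, and all 8 differences were larger on slide 1. FTSH1 differed by -1.43 on slide 1 and -1.06 on slide 2, FTSH2 by -1.06 and -0.64, FTSH5 by -0.86 and -0.61, and FTSH8 by -1.18 and -0.98 on the log2 scale. For the DEG genes the values were -1.01 and -0.67 for DEG1, -0.22 and -0.03 for DEG2, -0.92 and -0.54 for DEG5, and -0.66 and -0.53 for DEG8. With the slide as a block in the fit, the same 7 genes were called lower.

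The calls depended on how the arrays were put on a common scale. Relative to the spike-in probes, control probes for RNA added in known amounts, the median of all genes rose by 0.41. FTSH1 was then at -0.77, FTSH8 at -0.63 and FTSH2 and DEG1 both at -0.37. By limma 0 of the 8 members were called (1 at an unadjusted p under 0.05), with 4.80% of all genes called lower. The standard error of each member was 0.38 in this fit, against 0.076 (FTSH8) to 0.12 (DEG5) in the main one. The lack of calls thus does not show that the falls were absent. FTSH1 and FTSH8 were called once the slide was also a block, where 9.42% of all genes were called lower. DEG2 rose above 0 under this scaling, to 0.32, without being called. All 8 members remained below the median of all genes, which stood at 0.45. The falls reported here are thus relative to the bulk of each array's signals.

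**Figure D4:**
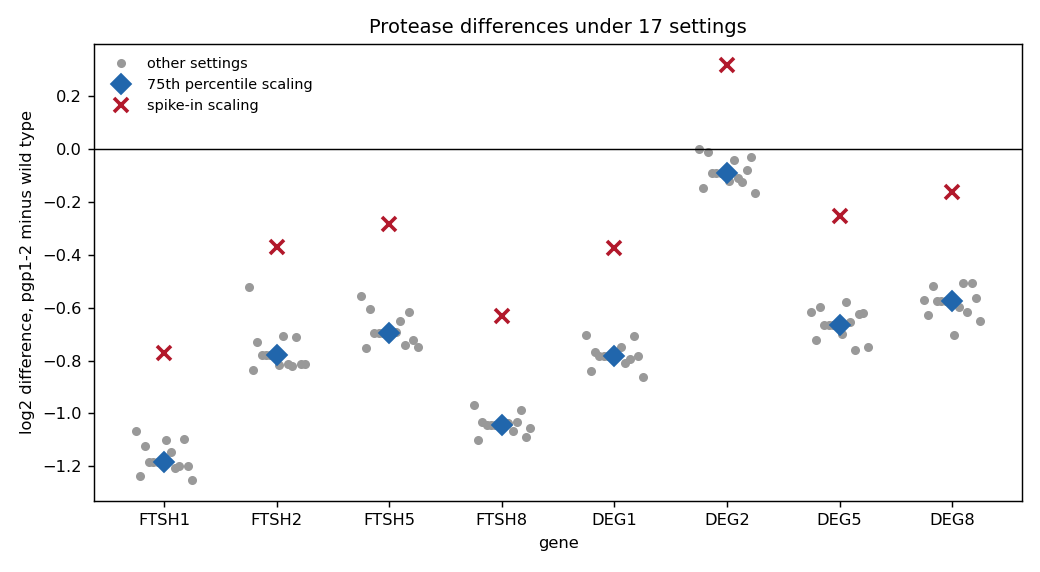
Log2 difference (pgp1-2 minus wild type) of each protease gene under all settings of the test. Blue diamonds are the reported values, red crosses the values relative to spike-in probes, and grey points the other settings, among them each fit without 1 array. FTSH1 and FTSH8 are the lowest under each setting, and DEG2 is the highest.

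Most measured genes of the rest of both protease families rose. Of 7 measured FtsH genes outside the thylakoid set, 5 were called higher and 1 lower, with a median log2 difference of 0.37, and the background for a call higher was 27.9%. All 3 mitochondrial FtsH genes rose: FTSH3 by 0.40, FTSH10 by 0.37 and FTSH4 by 0.37. FTSH12, a subunit of the plastid envelope, rose by 0.57 (limma adjusted p = 0.00107), with means of 0.29 ± 0.080 in the wild type and 0.87 ± 0.022 in the mutant (SD, n = 3), and FTSH7 rose by 0.25. FTSH9 was at 0.04 and was not called. FTSH11, a plastid envelope protease, was the exception and fell by 0.53 on the log2 scale (limma adjusted p = 0.00274). Under normexp 3 of these 7 genes were called higher. Calls over the whole array were also fewer in that fit, 6699 genes, 3876 of them lower, against 11885 in the main test. FTSH6 had no probe that passed the filter. Among 5 FtsH-like genes listed as lacking the protease site, EMB3144 (0.41) and emb2458 (0.31) rose and 3 were not called, and normexp left 0 of the 2 limma calls.

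All 5 measured DEG genes outside the thylakoid set were called higher, with a median log2 difference of 0.37. DEG7, which acts on photosystem II from the stromal side, rose most, by 0.79 (limma adjusted p = 0.000328), and its means were 1.27 ± 0.031 in the wild type and 2.05 ± 0.051 in the mutant (SD, n = 3). DEG9 rose by 0.50, DEG4 by 0.37, DEG10 of mitochondria by 0.28 and DEG15 of peroxisomes by 0.23. DEG4 was dim and changed sign under normexp, where 2 of the 5 genes were called. With the spike-in reference all 5 DEG genes and 6 of the 7 FtsH genes were above 0. The median of all genes was then 0.45, so a value above 0 was common. By limma 1 gene of each list was called higher in that fit, where 4606 genes of the whole array were called, 1088 of them lower. With the slide also a block, 5 DEG and 6 FtsH genes were called higher. In that fit 12845 genes of the whole array were called, 2137 of them lower. The other 7 DEG loci listed had no probe that passed the filter.

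Lists of plastid proteins that work beside the thylakoid proteases were counted in the same way, against the 24.5% of all genes called lower. Of the stromal CLP protease, 14 of 15 genes were called lower and 1 higher, with a median log2 difference of -0.41. The core subunits CLPP3 (-0.72) and CLPR1 (-0.61) and the locus AT1G68660 (-0.69) fell most, and CLPC2, a chaperone subunit, rose by 0.41, a call that normexp did not keep. Relative to the spike-in probes 0 of the 15 were called lower, and 7 of those lower in the main test were above 0. Under normexp and under quantile normalization 8 were called lower in each. Of all genes, 3876 and 5376 were called lower in these fits, against 5568 in the main test. Of 9 other plastid peptidases, 4 were called lower and 0 higher (median -0.24), led by the thylakoid processing peptidase PLSP1 (-0.55), the intramembrane protease EGY2 (-0.43) and the stromal processing peptidase SPP (-0.36). SPP changed sign with the spike-in probes, as did AT3G57680, and normexp left 1 of the 4 calls. Of 8 plastid chaperones, CLPB3 (-0.37), Cpn60beta2 (-0.31) and CPHSC70-1 (-0.22) were called lower and 5 genes were not called. These 3 chaperones were above 0 relative to the spike-in probes, and limma called 0 of them lower under normexp and 1 under quantile normalization.

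Genes of photosystem II, the complex that the thylakoid proteases maintain, had lower medians than the full thylakoid protease set (-0.74). Against the thylakoid FtsH genes alone (-0.91), only the median of the subunit genes was lower. Neither comparison was tested. Of 24 genes for its assembly and repair, 22 were called lower and 0 higher, with a median log2 difference of -0.85. The loci AT5G02160 (-1.99) and AT5G07020 (-1.48) and the lumenal protein gene PPL1 (-1.25) fell most. THF1, which is needed for normal FtsH levels and was singled out after its value was seen, fell by 0.86 on the log2 scale (limma adjusted p = 0.00119). All 10 nuclear genes for photosystem II subunits were called lower, with a median of -1.44. They were led by the oxygen-evolving complex genes PSBQ-2 (-2.17) and PSBQA (-1.90) and by PSBTN (-1.80). Relative to the spike-in probes, 7 of these 10 subunit genes and 2 of the 24 assembly genes were called lower, against 4.80% of all genes. With the slide also a block, 9 subunit genes and 11 assembly genes were called lower, against 9.42% of all genes.

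Suppressor loci, whose mutation is known to restore green leaves in variegated FtsH mutants, were counted as well. The list held 11 such genes, mostly for plastid translation and the CLP protease, and its completeness was not checked. Of these 11, 7 were called lower and 0 higher, with a median log2 difference of -0.42, against 24.5% of all genes called lower. CLPC2, the CLP chaperone subunit that rose by 0.41 in the main test, was not among them, although CLPC1 was. The elongation factor gene SCO1 (-0.74), CLPR1 (-0.61) and the initiation factor gene FUG1 (-0.54) fell most. SVR1 was at 0.10 and was not called. With the spike-in probes as reference 0 of the 11 were called, and CLPC1 changed sign. The normexp fit left 4 of the 11 called lower, and 3876 of all genes, against 5568 in the main test.

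**Figure D5:**
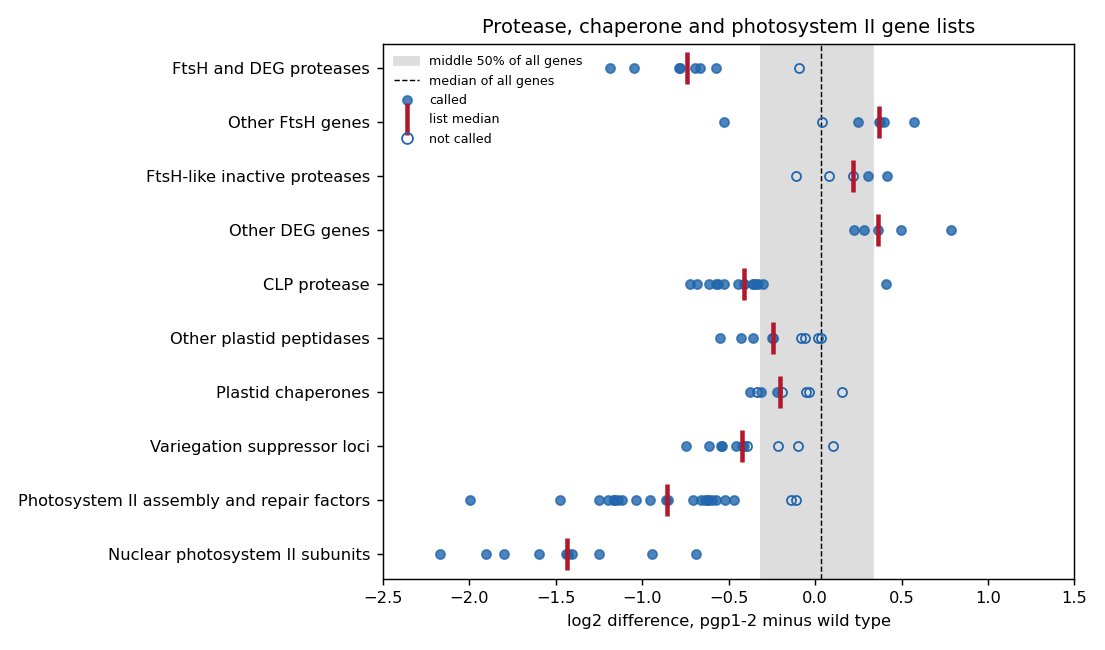
Log2 difference (pgp1-2 minus wild type) of each measured gene in the protease set and in 9 other lists. Filled points are called by limma, open points are not, red bars are list medians, the grey band holds the middle 50% of all genes and the dashed line is their median. The thylakoid FtsH and DEG genes lie left of the band except DEG2, and the other FtsH and DEG genes lie mostly to the right of the dashed line.

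The genes whose pattern over the 6 arrays was most like that of a member were found by the smallest root mean square difference after each gene was centred on its own mean. Nearest to FTSH2 were ARC5, which acts in chloroplast division (0.034), SPS2, a solanesyl diphosphate synthase (0.038), and HCF164, a thylakoid thioredoxin-like protein (0.045). In these genes the log2 differences were -0.73, -0.79 and -0.84. Nearest to DEG1 were the locus AT5G35170 (0.038), the glucosyltransferase gene UGT88A1 (0.039) and CAB1, a light-harvesting protein gene (0.041), with log2 differences of -0.84, -0.73 and -0.84. Such likeness was not confined to these genes, with 159 of 19108 other genes within 0.1 of FTSH2 and 206 of 19108 within 0.1 of DEG1.

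Some markers of tissue and age were called as well, where 52.4% of all genes were called in either direction. Their part in the protease differences was not tested. Of 8 measured root markers of 12 listed, 3 were called lower and 2 higher. CASP1 was at -2.84 in the wild type and -7.22 in the mutant, where it was well above background on 1 of 3 arrays. PIP2;4 and SHR fell by 1.58 and 0.52 on the log2 scale, while PYK10 rose by 1.56. COBL9 was called higher but was well above background on 2 of 3 wild-type arrays, and under normexp it was at 0.30 and was not called by limma. The summed root marker signal, in units of the array's 75th percentile, was 19.5 to 20.9 in the wild type and 46.4 to 68.6 in the mutant. PYK10 alone made up 17.5 to 18.9 and 44.8 to 67.0 of it, and without PYK10 the sum was 1.99 to 2.15 in the wild type and 1.58 to 1.66 in the mutant. EXPA7, EXPA18, NRT2:1 and IRT1 had no probe that passed the filter. Of 4 shoot markers, FAMA (0.72) and MYB60 (0.47) of guard cells rose and KAT1 fell by 0.61, with summed signals of 4.94 to 5.46 and 4.82 to 5.43. MYB60 was not called by limma under normexp. Of 5 measured age and flowering markers of 7 listed, SPL3 (0.95) and FT (0.93) rose, though neither was called by limma under normexp, with summed signals of 3.39 to 3.86 and 3.15 to 5.32. Of 4 measured senescence markers of 5 listed, SAG13 rose by 3.40 and NAP fell by 1.67, with summed signals of 3.94 to 5.51 and 4.77 to 8.05. AP1, LFY and SAG12 had no probe that passed the filter.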

How the data were processed

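Per the file headers, the authors used Agilent Feature Extraction 10.7.1.1 on scans of Cy3 alone. For every spot they deposited a processed signal, which is a linear intensity after background correction and spatial detrending, together with unprocessed median intensities (spot and local background) and quality flags. The headers record no step that scales one array to another.

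From these, log2 of the processed signal minus the array's 75th percentile was computed. Outlying spots (9 to 82 per array) were left out, as were 197 probes that lost all their spots on at least 1 array. No spot was saturated. On slide 1, 78.7% to 79.3% of probes stood well above background, and on slide 2, 68.6% to 70.5%. Probes well above background on all 3 arrays of a group were kept, and the brightest kept probe stood for its gene. Accessions were matched to loci through the RefSeq table of TAIR10.1 (34340 of 43603 probes). Its assembly is not the build named in the headers, so no coordinates are given.

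All 22682 genes were tested in 1 limma 3.58.1 fit (R 4.3.3, lmFit and eBayes, two-sided) with Benjamini-Hochberg adjustment. The members, lists and alternatives were chosen with earlier results of these data known. Lists carry no test. All 8 members are named. Of each list at most 3 rises and 3 falls are named, chosen by size among called genes, and any measured gene of the other FtsH and DEG lists. PGP1, SVR1, THF1, AT3G57680 and, beside the suppressor loci, CLPC1 and CLPC2 are named outside that rule. The number of arrays limits the precision.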

Additional observations from a re-analysis of the deposited data

How the results depend on the processing

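The same 7 members were called lower under 14 of 16 other settings of the limma test, among them normexp, quantile and median scaling, both other filters, the mean of probes, the slide as a block and each fit without 1 array. The exceptions were both spike-in scalings. Relative to the spike-in probes 0 members were called lower: FTSH1 was at -0.77, FTSH2 at -0.37, FTSH5 at -0.28, FTSH8 at -0.63, DEG1 at -0.37, DEG5 at -0.25 and DEG8 at -0.16. Adding the slide as a block left these values as they were and 2 members called, FTSH1 and FTSH8. DEG2 changed sign to 0.32 in both spike-in fits and to 0.00079 under quantile normalization, never called. The spike-in scaling adds 0.41 to every gene's log2 difference, and without the slide block it gave each member a standard error of 0.38. Over all genes 4606 were called with the spike-in probes, 12845 with the slide also a block and 6699 under normexp, against 11885, and the cause of the normexp count was not tested. Without 1 array, 9598 to 11129 genes were called and 7 to 7 members, with FTSH1 between -1.25 and -1.10, FTSH8 between -1.09 and -0.99 and DEG2 between -0.17 and -0.03.

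Within slide 1 and slide 2 the log2 differences were -1.43 and -1.06 for FTSH1 and -1.06 and -0.64 for FTSH2. Within slide 1 they were -0.86 for FTSH5, -1.18 for FTSH8, -1.01 for DEG1, -0.22 for DEG2 and -0.92 for DEG5. These values carry no test.

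Quantile normalization of the ratios, an alternative chosen after seeing the data, changed FTSH2 over FTSH8 by 0.45 and FTSH5 over FTSH2 by -0.032. Ratio changes on slide 1 were 0.11 for FTSH2 over FTSH8, 0.20 for FTSH5 over FTSH2 and -0.26 for DEG5 over DEG8. The last was 0.0037 with the mean of probes and ranged from -0.15 to 0.019 without 1 array. With the replicate number as a block, 7 members and 11017 genes were called. Same-numbered arrays deviated together at correlations of 0.081, 0.12 and 0.059, so the replicate numbers were treated as names alone.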
